A study of Zea mays with 9 samples.

Results

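The heterozygote P1-ww714/B73 was set against the middle of its 2 parents, the lines P1-ww714 and B73, for every gene whose counts allowed a test. The members are the 3 heterozygote libraries and the 6 parental libraries, which are all 9 libraries of the series, and the 22544 genes of 39656 identifiers that passed a filter on low counts. All libraries are RNA-seq of maize seedlings aged 14 days, and the study asks how gene dose acts in maize copy-number alterations. The groups are P1-ww714/B73, P1-ww714 and B73, with 3 samples each. B73 is the inbred line that serves as a maize reference genotype. P1-ww714 is a line named for its allele of p1, a pigment regulator gene on chromosome 1, and is known to carry an extra tandem copy of the chromosome 1 segment next to it. By its genotype name the heterozygote carries 1 copy of chromosome 1 from each parent. The labels do not say in what background P1-ww714 was kept or whether it is homozygous, as is taken here, nor whether the 3 samples of a group came from separate plants, so each p-value rests on a spread among samples that could be technical only.

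A hybrid whose 2 alleles each give out what they give in their own parent has a transcript level at the arithmetic mean of the parents, and such a gene is called additive. When 1 allele sets the level of the hybrid, the hybrid equals that parent and the gene is called dominant. A level beyond both parents is called overdominant or transgressive, and such levels have been studied in maize as a possible part of hybrid vigour. The scale matters for genes whose parents differ strongly. On a log scale the middle is the geometric mean, which lies below the arithmetic mean, so an additive gene stands above the log2 middle by an amount that grows with the parental difference and that does not depend on which parent is higher.

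Each departure was measured on both scales. On the log2 scale it is the heterozygote's fitted log2 level minus the mean of the log2 levels of the parents. On the linear scale it is the heterozygote's CPM (counts scaled to a common library size) minus the arithmetic mean of the parents, divided by the gene's mean CPM over all 9 libraries. A position index places the heterozygote between the parents, with 1 for the level of P1-ww714, 0 for the middle and -1 for the level of B73.

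Library totals ran from 9486044 to 16189684 counts. The p1 gene had 25 counts over all libraries, with 2, 1 and 1 in P1-ww714/B73, 4, 4 and 11 in P1-ww714, and 1, 0 and 1 in B73, too few for it to check the labels. The libraries carried the transcripts of leaf tissue, with 40324 to 51277 summed CPM of C4 cycle and Rubisco genes in P1-ww714/B73, 38749 to 48472 in P1-ww714 and 37521 to 45757 in B73. Of 10 shoot meristem genes, 4 including kn1 had 0 counts in every library, while knox6 and knox7 were at 18.2 to 40.6 CPM. Of 3 root genes rtcs1 had 0 counts, while rum1-like1 and rth3 were at 10.2 to 32.5 CPM. One heterozygote library stood apart: P1-ww714/B73 replicate 1 had a mean correlation with the other libraries of 0.965, against 0.974 to 0.982 for each of the other libraries. Of the 1128 genes with the lowest log2 departures, it was the lowest of the 9 libraries for 51.2%, while P1-ww714/B73 replicates 2 and 3 were lowest for 10.1% and 20.2%. The main counts over all tested genes, the segment medians and the medians of gene lists are given with and without it. Counts of libraries without overlap and the levels of single genes are given with it only.

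No gene was called off the middle of the parents on either scale. On the log2 scale 0 of 22544 genes (0%) passed an adjusted p of 0.05 in edgeR's quasi-likelihood test, and on the linear scale 0 genes (0%) passed in limma's test. At an unadjusted p under 0.05 the log2 scale held 235 genes (1.04%), of which 86 (0.381%) were above and 149 (0.661%) below the middle. The linear scale held 219 genes (0.971%), with 64 above and 155 below, and 175 genes reached this level on both scales with the same sign. If no gene departed and p-values were uniform, a share of 0.05 would be met, and both shares lie under it. The p-values were thus larger than uniform ones, for a reason that was not tested. The low shares are therefore no measure of how many genes sit at the middle. Limma-voom called 0 genes on the log2 scale, a delta-method test on the edgeR fit called 0 on the linear scale, and DESeq2 called 2 on the log2 scale (0.00887%), both described below. Without P1-ww714/B73 replicate 1 the adjusted counts were 0 on both scales. The unadjusted counts were then 383 on the log2 scale, with 177 above and 206 below the middle, and 355 on the linear scale. On the log2 scale more genes lay above than below without P1-ww714 replicate 3 (218 against 146) or P1-ww714/B73 replicate 3 (273 against 231). Leaving out any other library gave more below.

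The departures were small for most genes. The median log2 departure was -0.0003, 90% of genes lay between -0.34 and 0.23, and 49.9% of genes were above 0. The median standard error was 0.15 on the log2 scale. The 95% interval excluded a departure of 2-fold in either direction for 20225 genes, which is 89.7%, and a departure of 1.5-fold for 15435 genes, which is 68.5%. For the other genes the interval did not exclude a departure of that size. The mean CPM of the heterozygote lay between the means of the parents for 42.8% of genes, above both for 27.4% and below both for 29.7%.

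Genes that differ between the parents are those for which additive and dominant levels can be told apart. P1-ww714 differed from B73 at an adjusted p of 0.05 in edgeR's quasi-likelihood test for 175 genes (0.776%), with 147 higher and 28 lower in P1-ww714. Of these, 84 lie in a run of neighbouring genes on chromosome 1 that was found from the same contrast and is called the segment here, 33 lie elsewhere on placed chromosomes, and 58 could not be placed. The heterozygote's level is not part of the contrast that chose these genes. That contrast is uncorrelated with the departure from the middle only where groups are of equal size and the parents vary equally. The parents varied unequally for some genes, as in GRMZM2G308666, with an SD of 8.24 CPM in P1-ww714 and 0.849 CPM in B73. The position index also divides by the parental difference that chose the genes.

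On the linear scale the heterozygote could not be told from the middle for nearly all of these genes, and could be told from both parents for most. The 95% interval of the linear departure held the middle for 172 of 175 genes. It held the middle and neither parent for 160 genes, the middle and 1 parent for 12, the level of B73 alone for 2 and the level of P1-ww714 alone for 1. The 3 genes off the middle are 1.71% of these genes, against 0.971% of all tested genes. The median position was -0.03, with quartiles of -0.17 and 0.11, and 141 genes lay within 0.25 of the middle and 170 within 0.5. The heterozygote mean was above the linear middle for 78 genes.

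On the log2 scale the same genes stood above the middle. The interval held the log2 middle for 147 of 175 genes and excluded it for 28, which is 16% of these genes against 1.04% of all tested genes. Of the 28, 27 were above the middle and 1 below. The 28 intervals lay between the middle and a parent for 21 genes, held the level of P1-ww714 alone for 5 and the level of B73 alone for 2. The heterozygote was above the log2 middle for 143 genes, which were 119 of the 147 genes higher in P1-ww714 and 24 of the 28 genes lower in P1-ww714. The log2 position had a median of 0.13, with quartiles of -0.03 and 0.30, and 95 genes lay within 0.25 of the log2 middle. All 175 heterozygote means lay between the means of the parents, which a large parental difference partly fixes.

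**Figure D1:**
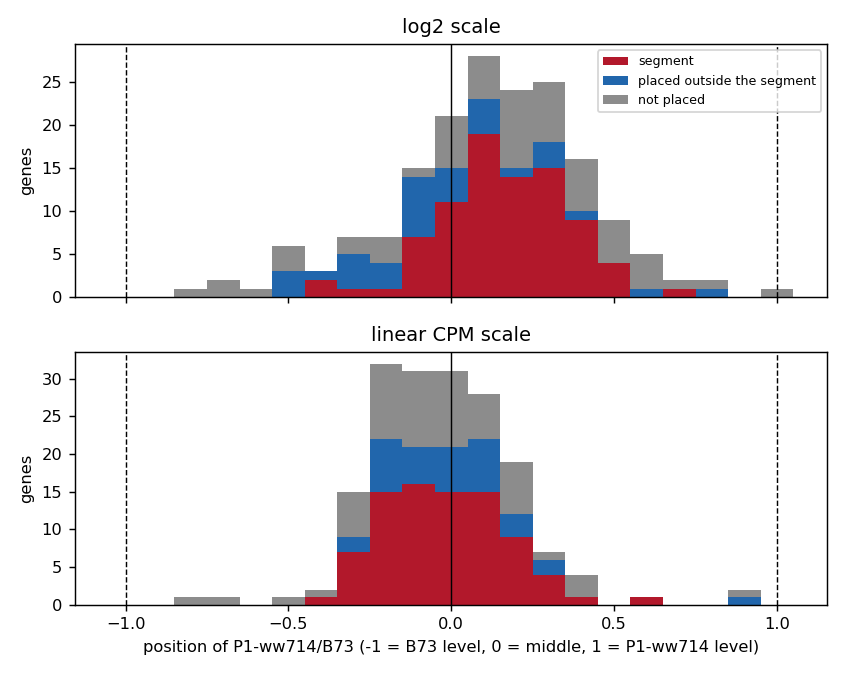
Position of the heterozygote between its parents for the 175 genes that differ between P1-ww714 and B73, on the linear and on the log2 scale. An index of 1 is the level of P1-ww714, 0 the middle and -1 the level of B73; linear positions gather at the middle, with a median of -0.03, while the log2 median is 0.13.

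The log2 departure grew with the parental difference, as does the curve that an arithmetic-mean heterozygote would follow. In each range from 2-fold up its median lay below that curve. For 64 genes whose parents differed by less than 2-fold, the median log2 departure was 0.07, and the curve gave 0.07. For 61 genes between 2-fold and 2.83-fold it was 0.08, against 0.11 on the curve, and for 30 genes up to 8-fold it was 0.20, against 0.26. For 20 genes of at least 8-fold it was 1.14, against 1.31. The heterozygote's mean CPM was a median of 100.3%, 97.5%, 95% and 96.2% of the arithmetic mean of the parents over these 4 ranges, from the smallest parental difference to the largest. In the same order, the heterozygote was above the linear middle for 33 of 64, 28 of 61, 7 of 30 and 10 of 20 genes. Of the 28 genes off the log2 middle, 17 were among the 20 genes of at least 8-fold. In 2 of those 20 every library of 1 parent had 0 counts, so that their fitted log2 values depend on the prior count, and without them the median was 1.11, against 1.29 on the curve, at 90.3% of the arithmetic mean. Across the other 173 genes the departure and the curve had a correlation of 0.92, and across the 155 genes under 8-fold it was 0.46. Both are descriptions, since genes of 1 fit share their libraries. The departure and the curve are also computed from the same parental levels, so part of the correlation can be built in.

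**Figure D2:**
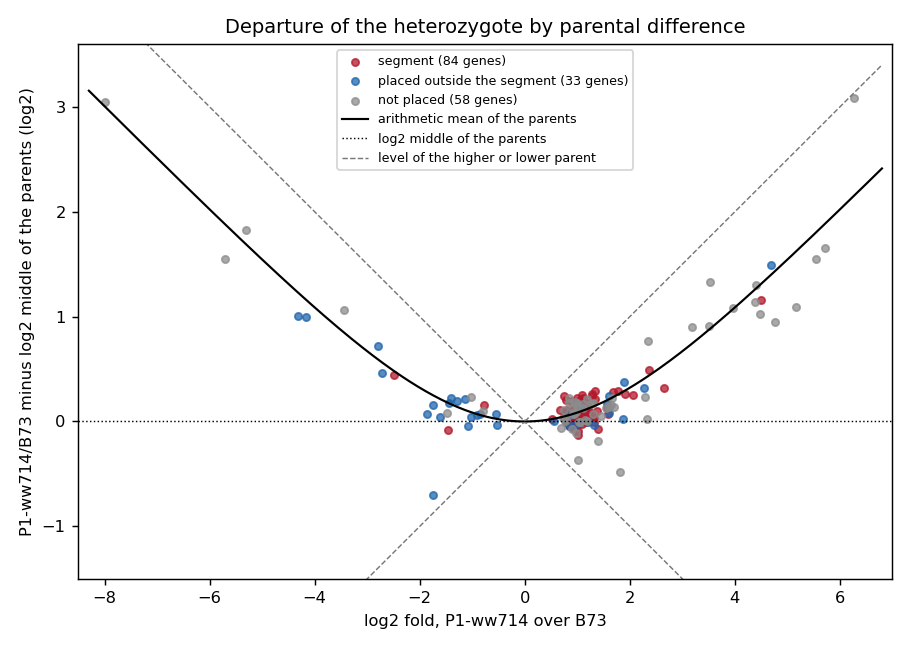
Log2 departure of the heterozygote from the log2 middle against the log2 difference of P1-ww714 from B73 for the genes that differ between the parents, with the line at 0 for the log2 middle and the curve for a heterozygote at the arithmetic mean. Genes 8-fold or more apart stand well above 0, with a median of 1.14, and lie near the curve.

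Both genes that DESeq2 called off the log2 middle had their lowest libraries in B73, and for both the linear interval held the middle and neither parent. GRMZM2G123866, a chromosome 2 gene without a symbol, had 6.22, 6.24 and 7.57 CPM in P1-ww714/B73, 11.9, 11.4 and 13.0 CPM in P1-ww714, and 0.623, 0.672 and 0 CPM in B73. The 3 groups did not overlap, and the heterozygote mean was 107% of the arithmetic mean of the parents. Its log2 departure was 1.49 (SE 0.30), with an edgeR p of 0.000512 before adjustment and 1 after it, and its linear p in limma was 0.531. GRMZM2G308666, a chromosome 1 segment gene, had 17.0, 16 and 13.4 CPM in P1-ww714/B73, 29.5, 27.4 and 42.6 CPM in P1-ww714, and 1.56, 2.18 and 0.504 CPM in B73. Here too the groups did not overlap, with a heterozygote at 89.6% of the arithmetic mean, a log2 departure of 1.15 (SE 0.25) and a linear p in limma of 0.527.

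Genes that were on in 1 parent and near silent in the other show the same placing at its widest. With near silent taken as a mean under 1 CPM and on as at least 2 CPM in every library, 23 genes qualified. Of these, 13 were near silent in B73 and 10 in P1-ww714. Most of the 23 could not be placed on a chromosome, and none of the placed ones lies in the segment. The heterozygote mean was a median of 91.0% of the arithmetic mean, from 59.1% to 158%, and was within 25% of it for 17 of 23 genes. For 11 genes every heterozygote library lay between the libraries of the parents. At an unadjusted p under 0.05, 10 of the 23 were off the log2 middle, against 1.04% of all tested genes, and 1 was off the linear middle, against 0.971%. Their median log2 departure was 0.95. The rule used no heterozygote level, but it did use the parental levels against which the heterozygote is placed. In these genes a heterozygote at the arithmetic mean would show a median log2 departure of 0.63. The share off the log2 middle is therefore partly fixed by the rule.

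Single genes of this kind show how the pattern looks in counts. GRMZM2G413835, which no source used here places or names, had 4.06, 7.64 and 9.54 CPM in P1-ww714/B73, 0, 0 and 2.36 CPM in P1-ww714, and 12.8, 11.8 and 13.8 CPM in B73. Its heterozygote libraries lay between those of the parents in every case and averaged 104% of the arithmetic mean. GRMZM2G351248, also unplaced, had 9.65, 5.85 and 6.54 CPM in P1-ww714/B73, 15.0, 12.6 and 13.3 CPM in P1-ww714, and 0.623, 1.34 and 0.605 CPM in B73, and stood at 101% of the arithmetic mean. GRMZM2G317033 misses the rule because of its lowest B73 library, but was at 0 in 1 parent throughout. It had 1.62, 1.46 and 0.726 CPM in P1-ww714/B73, 0 CPM in all 3 P1-ww714 libraries, and 2.88, 2.94 and 1.61 CPM in B73, and stood at 103%. Among the 23 with a symbol, pmPOX2, a peroxidase of the plasma membrane, was at 125% of the arithmetic mean and bHLH94, a transcription factor, at 69.3%, neither off the middle at an unadjusted p of 0.05 on either scale.

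The 3 genes off the linear middle leaned to a parent. GRMZM2G076723 had 5.77, 7.06 and 4.67 CPM in P1-ww714/B73, 9.63, 10.8 and 12 CPM in P1-ww714, and 6.0, 5.46 and 4.54 CPM in B73, so that the heterozygote overlapped B73 and lay below every P1-ww714 library. GRMZM2G417082 had 0.992, 1.46 and 1.35 CPM in P1-ww714/B73, 3.70, 2.99 and 3.35 CPM in P1-ww714, and 1.32, 0.504 and 1.01 CPM in B73, and also overlapped B73 alone. GRMZM2G413066 had 0.631, 0.891 and 0.622 CPM in P1-ww714/B73, 0.510, 0.855 and 0.919 CPM in P1-ww714, and 0 in all 3 B73 libraries, so that the heterozygote overlapped P1-ww714. None of the 3 could be placed or has a symbol, none passed the adjusted threshold, and 2 of them rest on levels near 1 CPM. GRMZM2G159110, a gene outside the segment that was lower in P1-ww714, was the gene below the log2 middle, with 1.35, 1.59 and 1.76 CPM in P1-ww714/B73, 1.59, 1.11 and 1.44 CPM in P1-ww714, and 7.09, 2.86 and 4.03 CPM in B73. Its heterozygote libraries overlapped P1-ww714, its log2 departure was -0.70, and its linear interval held the middle and the level of P1-ww714.

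The segment on chromosome 1 held 84 of the 175 parental differences. If it is present in 2, 3 and 4 copies in B73, P1-ww714/B73 and P1-ww714, and transcripts follow copies, the heterozygote stands at the linear middle and 0.08 above the log2 middle. Over its 131 tested genes the median departure was 0.07 on the log2 scale, against -0.0003 over all tested genes, and -0.02 on the linear scale, against -0.003 over all tested genes. The heterozygote was above the log2 middle for 93 of 131 genes and above the linear middle for 59. Its mean CPM was a median of 98.3% of the arithmetic mean of the parents, and it lay between the means of the parents for 123 genes, or 93.9%, against 42.8% of all tested genes. The segment was found from the parental difference, and a wide gap between the parents largely fixes such a count. At an unadjusted p under 0.05, 8 segment genes (6.11%) were off the log2 middle, all above it, against 1.04% of all tested genes. On the linear scale 0 were off the middle in limma's test, against 0.971% of all tested genes. Without P1-ww714/B73 replicate 1 the medians were 0.08 and -0.0025.

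Of the segment genes with a symbol that differ between the parents, the 12 with the highest expression are described next, and their heterozygote means ran from 91.9% to 111% of the arithmetic mean. Of genes that act against oxidants, sod4, a superoxide dismutase, had 162, 175 and 166 CPM in P1-ww714/B73, 267, 237 and 285 CPM in P1-ww714, and 88.0, 100 and 80.0 CPM in B73. MSRB5.1, which repairs oxidised methionine in proteins, had 108, 97.0 and 99.4 CPM in P1-ww714/B73, 133, 121 and 142 CPM in P1-ww714, and 52.4, 59.4 and 51.0 CPM in B73. Their groups did not overlap, and the heterozygote averaged 168 ± 6.47 and 102 ± 5.84 CPM (SD, n = 3), which was 95.3% and 109% of the arithmetic mean of the parents. For sod4 the intervals of both scales held the middle alone, with a log2 departure of 0.13 (SE 0.10). MSRB5.1 was off the log2 middle at 0.26 (SE 0.09), with an edgeR p of 0.0135 before adjustment and 1 after it, and its linear interval held the middle. CYP714B3, a cytochrome P450 gene, was the other segment gene with a symbol off the log2 middle, at 0.29 (SE 0.13) and 110% of the arithmetic mean, with an edgeR p of 0.0444 before adjustment.

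Of the genes of light sensing and porphyrin synthesis among the 12, none had a linear interval that excluded the middle. PhyB1, a phytochrome that senses red light, had 108, 102 and 99.6 CPM in P1-ww714/B73, 135, 136 and 140 CPM in P1-ww714, and 59.1, 68.3 and 72.0 CPM in B73, with no overlap between groups and a heterozygote at 102% of the arithmetic mean. For les22, uroporphyrinogen decarboxylase of the porphyrin pathway, the heterozygote had 253, 333 and 286 CPM, against 274, 403 and 395 CPM in P1-ww714 and 126, 199 and 176 CPM in B73. The heterozygote overlapped P1-ww714 and stood at 111% of the arithmetic mean, with a linear interval that held both the middle and the level of P1-ww714. DVR, divinyl reductase of chlorophyll synthesis, stood at 108%, with 27.1, 27.9 and 24.1 CPM in P1-ww714/B73, 26.7, 31.3 and 41.6 CPM in P1-ww714, and 14.2, 17.1 and 15.0 CPM in B73.

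**Figure D3:**
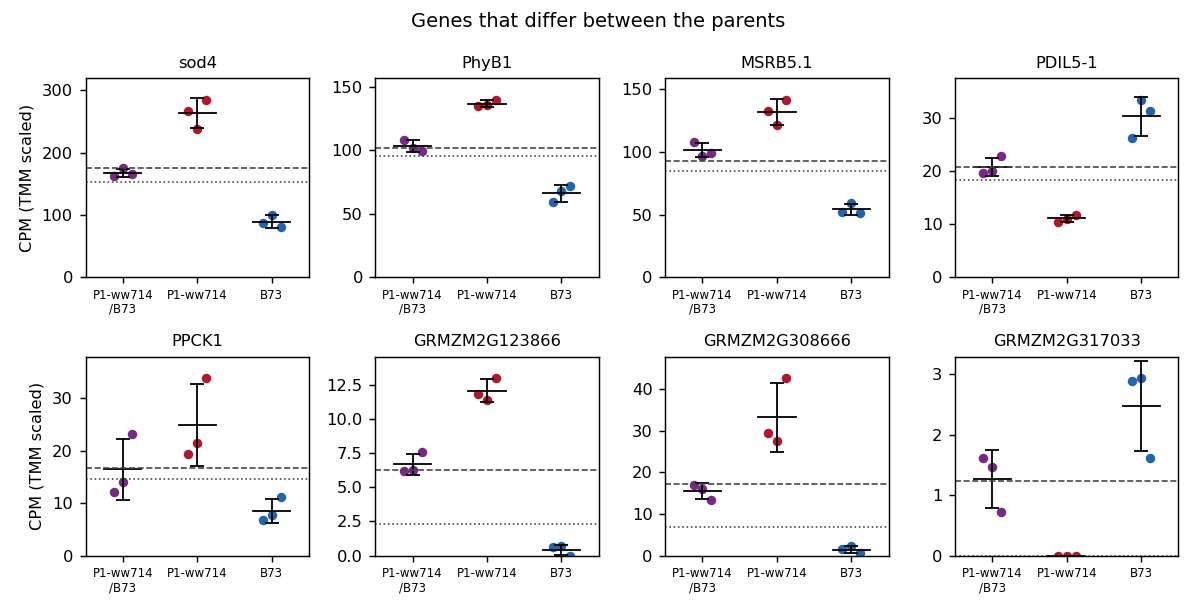
TMM-scaled CPM of genes that differ between the parents, one panel per gene with its own linear axis (PDIL5-1 is identifier GRMZM2G443655). Dots are libraries of P1-ww714/B73, P1-ww714 and B73, the black bar is the mean ± SD (n = 3), the dashed line the arithmetic mean and the dotted line the geometric mean of the parents; the heterozygote of PhyB1 stands at 102% of the dashed line.

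The others of the 12 act in signalling, transport and regulation or have no role given here. CaM1, a calmodulin, had 159, 185 and 181 CPM in P1-ww714/B73, 237, 227 and 249 CPM in P1-ww714, and 127, 125 and 106 CPM in B73, at 98.1% of the arithmetic mean. HAK8, a potassium transporter, had 88.0, 99.3 and 98.3 CPM in P1-ww714/B73, 140, 123 and 145 CPM in P1-ww714, and 77.4, 66.3 and 69.9 CPM in B73. At 91.9% it was the lowest against the arithmetic mean among the 12, and its log2 departure of -0.05 (SE 0.09) was the only one of the 12 below 0. The transcription factor genes GLK17 and bZIP52 both stood at 101%, ZBP14 at 95.2%, nad1 at 99.6%, and mez3, a histone methyltransferase gene of the Enhancer of zeste kind, at 99%. None of the 12 had a linear interval that excluded the middle.

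Of the segment's 131 genes, 47 were not called between the parents. Their heterozygote mean lay between the means of the parents for 39 genes, and their median departure was 0.008 on the log2 scale and -0.03 on the linear scale. Segment genes called lower in P1-ww714 than in B73 were 3, and the heterozygote mean lay between the parents in each, as for all 175 genes. TPS8 had 23.0, 24.1 and 20.1 CPM in P1-ww714/B73, 11.6, 3.67 and 5.32 CPM in P1-ww714, and 41.7, 41.5 and 34.6 CPM in B73, at 97.2% of the arithmetic mean with no overlap between groups. Sus2, a sucrose synthase gene, had 7.03, 5.22 and 5.91 CPM in P1-ww714/B73, 4.66, 3.16 and 3.68 CPM in P1-ww714, and 11.6, 9.83 and 10.4 CPM in B73, at 83.9%. GRMZM2G329040 had 127, 138 and 134 CPM in P1-ww714/B73, 87.5, 89.3 and 95.8 CPM in P1-ww714, and 125, 174 and 171 CPM in B73, so that the heterozygote overlapped B73 while its linear interval held the middle alone.

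The placed genes outside the segment and the unplaced genes also had median linear positions near 0, over a wider range. The unplaced genes have no chromosome here, so some may lie inside the segment. The 33 placed genes had a median linear position of -0.01, from -0.28 to 0.89, and the 58 unplaced genes had a median of -0.08, from -0.82 to 0.88, beside -0.03, from -0.40 to 0.59, in the 84 genes of the segment. The log2 positions had medians of -0.05 in the placed genes, 0.18 in the unplaced genes and 0.17 in the segment. A gene lower in P1-ww714 that stands above the log2 middle has a negative position. These medians therefore depend on the mix of directions in each set. The differences between these sets were not tested. PPCK1 on chromosome 5, which encodes a kinase that activates phosphoenolpyruvate carboxylase, had 12.2, 14.1 and 23.1 CPM in P1-ww714/B73, 19.4, 21.5 and 33.9 CPM in P1-ww714, and 6.78, 7.73 and 11.1 CPM in B73. The highest library of each group was replicate 3, the heterozygote overlapped P1-ww714 and not B73, and its mean of 16.5 ± 5.85 CPM (SD, n = 3) was 98.5% of the arithmetic mean. On chromosome 1, saf1 had 33.5, 22.8 and 29.3 CPM in P1-ww714/B73, 25.6, 17.2 and 17.5 CPM in P1-ww714, and 45.2, 40.4 and 42.4 CPM in B73, at 90.9%. PDIL5-1, a protein disulfide isomerase-like gene, is split over identifiers GRMZM2G443655 and GRMZM2G073628, whose counts are uncertain for that reason. The heterozygote was at 101% of the arithmetic mean for GRMZM2G443655 and at 96.3% for GRMZM2G073628.

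No gene was called beyond both parents. The heterozygote mean lay above both parental means for 27.4% of genes and below both for 29.7%, mostly without a difference that the tests could tell. A heterozygote that differed from each parent in the same direction was called for 0 genes (0%) at an adjusted p of 0.05 in edgeR, where both tests must pass, and for 0 genes by DESeq2. At an unadjusted p under 0.05 edgeR held 32 genes (0.142%), 6 above and 26 below both parents, and DESeq2 held 13. Without P1-ww714/B73 replicate 1 the count at this level was 77. All 3 heterozygote libraries were above all 6 parental libraries for 54 genes (0.24%) and below them for 98 (0.435%), 152 in all (0.674%). None of the 152 was placed in the segment or is among the 175 genes that differ between the parents. At a share of 0.674% few would be met in sets of that size, and a wide gap between the parents leaves less room for them. The median log2 departure was 0.27 for the 54 and -0.40 for the 98, which that choice of genes sets in sign.

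Of the 54 genes above, 3 had a symbol and an average log2 CPM of at least 1. CNX5, which acts in molybdenum cofactor synthesis in Arabidopsis, had 7.94, 7.89 and 7.78 CPM in P1-ww714/B73, 5.68, 6.15 and 6.17 CPM in P1-ww714, and 6.0, 6.22 and 5.85 CPM in B73. The heterozygote libraries were closely grouped at 131% of the arithmetic mean, with a log2 departure of 0.39 (SE 0.12) and an edgeR p of 0.00942 before adjustment. The gene rdr6, an RNA-dependent RNA polymerase of small RNA pathways, stood at 113%, with 32.8, 32.1 and 35.8 CPM in P1-ww714/B73, 30.6, 29.9 and 29.7 CPM in P1-ww714, and 29.5, 28.1 and 30.5 CPM in B73. FtsH2B, a thylakoid protease subunit, had 1360, 1224 and 1212 CPM in P1-ww714/B73, 1018, 1127 and 1153 CPM in P1-ww714, and 984.2, 1206 and 1165 CPM in B73, so that the lowest heterozygote library exceeded the highest B73 library only narrowly. Neither rdr6 nor FtsH2B reached an unadjusted p of 0.05.

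Of the 98 genes below, 6 had a symbol and the same minimum expression. PPCK4, another kinase gene for phosphoenolpyruvate carboxylase, had 2.71, 2.74 and 2.70 CPM in P1-ww714/B73, 3.44, 3.33 and 4.92 CPM in P1-ww714, and 4.13, 3.53 and 4.64 CPM in B73, at 67.8% of the arithmetic mean. GATA17, a GATA transcription factor gene, was at 64.4%, with 1.44, 2.61 and 2.18 CPM in P1-ww714/B73, 2.93, 3.33 and 3.09 CPM in P1-ww714, and 3.51, 3.28 and 3.23 CPM in B73. The potassium transporter gene kup1 was at 65.8%, with 7.58, 6.68 and 6.64 CPM in P1-ww714/B73, 10.2, 15.6 and 8.93 CPM in P1-ww714, and 7.71, 12.8 and 8.37 CPM in B73, a gap to B73 smaller than the spread among the B73 libraries. ExpB2, a beta-expansin that loosens cell walls, was at 82.7%, the alfin-like factor gene ALF19 at 81.8%, and GW2, whose rice counterpart is a ubiquitin ligase that limits grain width, at 88.0%. The log2 departures of the 6 ran from -0.62 in GATA17 to -0.18 in GW2, and all but GW2 had an edgeR p under 0.05 before adjustment.

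**Figure D4:**
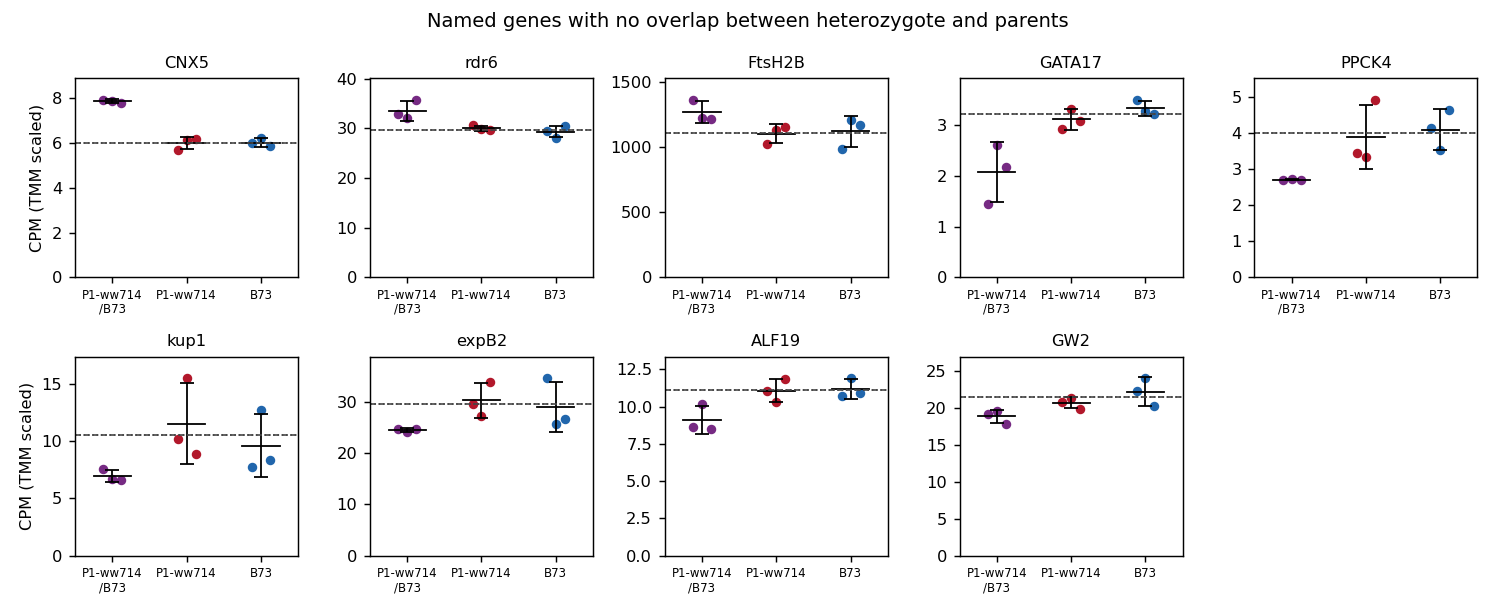
TMM-scaled CPM of genes whose 3 P1-ww714/B73 libraries all lie above or all below the 6 libraries of P1-ww714 and B73, one panel per gene with its own linear axis. Dots are libraries, the black bar is the mean ± SD (n = 3), and the dashed line is the arithmetic mean of the parents; CNX5 stands at 131% and PPCK4 at 67.8% of the dashed line.

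Among genes without a symbol the same rule gave GRMZM2G052279 at 149% and GRMZM2G027166 at 124% above, and GRMZM2G107591 at 46.9% and GRMZM2G073079 at 70.3% below. GRMZM2G073079 had 7.58, 12.1 and 11.9 CPM in P1-ww714/B73, 14.5, 16 and 14.9 CPM in P1-ww714, and 15.0, 15.8 and 13.6 CPM in B73, with replicate 1 the lowest of the heterozygote. None passed the adjusted threshold on either scale in edgeR, limma or DESeq2.

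Gene groups of leaf growth, photosynthesis and defence had no member called off the middle in edgeR. This does not set them apart, since 0 of all 22544 tested genes (0%) were called. Of 14 histone genes, which are transcribed mainly in dividing cells, all 14 were below the log2 middle, with a median of -0.25, against -0.0003 and 49.9% above for all tested genes. Per library, the deviation of log2 CPM from the log2 middle of the parents was also taken. Its median was -1.82 in P1-ww714/B73 replicate 1, 0.25 in replicate 2 and -0.17 in replicate 3. Without replicate 1 the median departure was 0.01, and 8 of 14 genes were above the middle. The histone 2A gene his2a1 had 43.7, 189 and 151 CPM in P1-ww714/B73, 184, 127 and 172 CPM in P1-ww714, and 184, 137 and 155 CPM in B73. Summed over the 14 genes, the heterozygote had 589.9 to 1253 CPM, P1-ww714 926.4 to 1248 and B73 942.2 to 1253. In bulk seedling RNA fewer dividing cells and less of these transcripts per cell cannot be told apart.

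Other genes of cell division had the same low library. Of 47 such genes 10 were above the log2 middle, with a median of -0.08, and replicate 1 had a median deviation of -0.51, against 0.06 in replicate 2 and 0.05 in replicate 3. Without it 36 of 47 were above the middle and the median was 0.04. RNRS3, a subunit gene of ribonucleotide reductase, had 1.71, 13.9 and 11.1 CPM in P1-ww714/B73, 17.3, 11.8 and 15.8 CPM in P1-ww714, and 16.8, 10.5 and 9.98 CPM in B73. TUB1, a tubulin gene, had 12.3, 82.2 and 71.1 CPM in P1-ww714/B73, 84.4, 61.4 and 68.3 CPM in P1-ww714, and 95.2, 56.4 and 73.5 CPM in B73. In both, replicate 1 was far below the other 8 libraries and the rest overlapped, and both were chosen after their values were seen. The most abundant tubulin gene, TUBA4, was at 96.8% of the arithmetic mean.

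**Figure D5:**
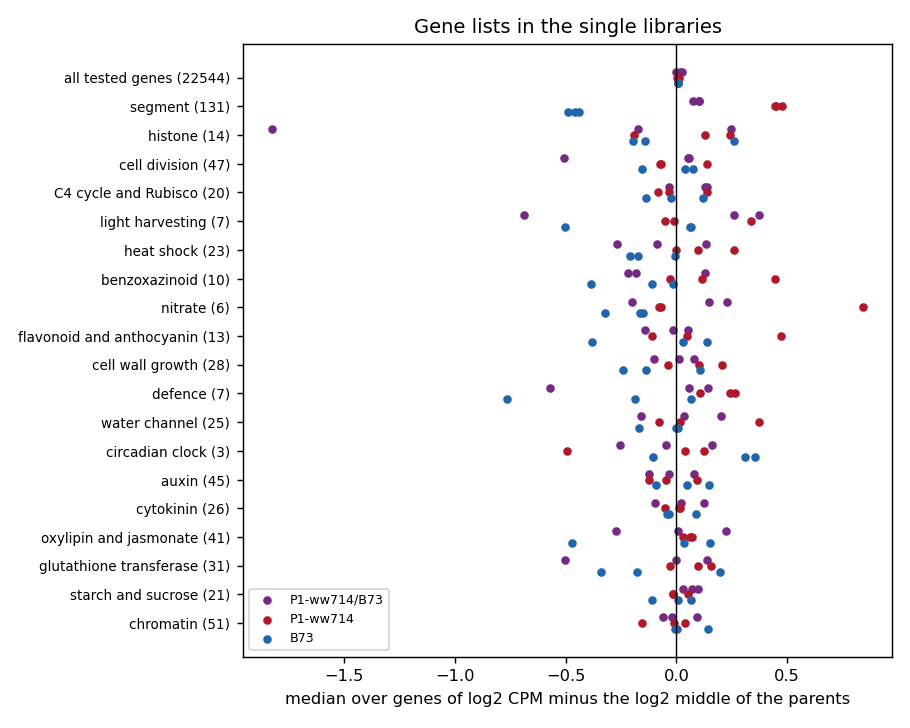
Median deviation of each gene list from the log2 middle of the parents (log2), by library of P1-ww714/B73, P1-ww714 and B73. P1-ww714/B73 replicate 1 is lowest for histone genes, at -1.82, and replicate 3 is lowest for light harvesting genes, at -0.69.

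Among light harvesting genes the heterozygote libraries lay on both sides of the log2 middle of the parents. As in the whole set of tested genes, no light harvesting gene was called. All 7 were above the log2 middle, with a median of 0.07, while the median deviation was 0.37 in P1-ww714/B73 replicate 1, 0.26 in replicate 2 and -0.69 in replicate 3. Without replicate 1 the median was -0.13 and 1 of 7 was above. B73 replicate 3 was also low, at -0.50. The gene cab48, which encodes a chlorophyll-binding protein, had 325, 239 and 46.9 CPM in P1-ww714/B73, 207, 210 and 247 CPM in P1-ww714, and 128, 181 and 109 CPM in B73, a wider range inside the heterozygote than over all parental libraries. Of 20 C4 cycle and Rubisco genes 15 were above the middle, with a median of 0.08, or 0.05 without replicate 1. The most abundant, pdk1 (pyruvate phosphate dikinase), had 23411, 19785 and 17950 CPM in P1-ww714/B73, 17672, 17684 and 19803 CPM in P1-ww714, and 17419, 19785 and 18057 CPM in B73, with overlapping groups.

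Glutathione transferase genes, of which 31 were tested, had a median of -0.06, or -0.20 without replicate 1. P1-ww714/B73 replicate 3 was at -0.50 and B73 replicate 3 at -0.34. Among 7 defence genes 6 were below the middle, with a median of -0.06, and without replicate 1 all 7 were below, with a median of -0.17. P1-ww714/B73 replicate 3 was at -0.57 and B73 replicate 3 at -0.76. The 10 benzoxazinoid genes, of a defence pathway of young maize, had 8 members below the middle and a median of -0.09, or -0.02 without replicate 1, while P1-ww714 replicate 3 was at 0.44 and B73 replicate 3 at -0.39. Beside the segment 20 lists were examined, and edgeR called 0 of their genes in either direction, as for all tested genes. The other lists held heat shock, nitrate, flavonoid and anthocyanin, cell wall growth, water channel, circadian clock, auxin, cytokinin, oxylipin and jasmonate, shoot meristem, root, starch and sucrose, and chromatin genes. Their medians ran from -0.05 for heat shock genes to 0.10 for shoot meristem genes, of which 2 were tested. Without replicate 1 they ran from -0.14 for oxylipin and jasmonate genes, with 6 of 41 above the middle against 18 with it, to 0.11 for shoot meristem genes. Water channel genes had a median of 0.03 with 18 of 25 above, and of -0.04 with 6 of 25 above without replicate 1. Circadian clock genes, of which 3 were tested, had -0.03, and -0.13 without replicate 1.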

How the data were processed

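The authors deposited raw read counts per gene for 39656 identifiers, with 1 column per library, and per the submitters' processing notes TopHat and HTSeq were used. Counts of paralogs and of overlapping genes are uncertain, since build, annotation, strand setting and the counting of multiply mapped reads were not given in the sources used here. Names and chromosomes came from a RefSeq table of assembly Zm-B73-REFERENCE-NAM-5.0, which matched 18775 identifiers, 2645 of them with a symbol, and no coordinates are given.

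Genes were filtered with filterByExpr (minimum count 10) and scaled by TMM. The log2 departure was tested with edgeR 4.0.16 in 1 fit of all libraries, the linear departure with limma 3.58.1 on TMM-scaled CPM divided by the gene's mean, both in R 4.3.3 and two-sided, with Benjamini-Hochberg adjustment over all tested genes. A level beyond both parents needed both tests, heterozygote against each parent, and took the larger p. DESeq2 1.42.0, limma-voom and a delta method were alternatives. The scripts were tested on simulated data. Replicates differed by 6.35 to 18.5 chi-square units per gene, so no pair of libraries was within sampling noise.

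The segment is the stretch of consecutive chromosome 1 genes that maximises the summed log2 fold of P1-ww714 over B73 less 0.5 per gene, with each fold held within -1 and 2 and the bounds set on alternate genes. Named genes are those called by any tool, symbol-bearing genes with no overlap beyond the parents, among parental differences the 12 symbol-bearing segment genes of highest expression and all symbol-bearing genes outside it, those without a symbol of the largest parental fold, and the highest members of lists. Other genes named in the text were chosen after their values were seen. The members and lists were chosen with earlier results of these data known.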

Additional observations from a re-analysis of the deposited data

How the results depend on the processing

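Of the main results under the alternatives, 103 values stayed within 1.5 times (counts) or 1 SD (medians) of the main value, and 6 did not. With DESeq2 the genes off the log2 middle were 2, the genes that differ between the parents were 311, and 285 of those had a log2 interval that held the middle. Leaving out 1 library at a time gave 0 genes off the middle on either scale and 0 beyond both parents. It gave 121 genes (without P1-ww714 replicate 2) to 224 genes (without P1-ww714/B73 replicate 1) that differ between the parents. Of these, 97 (without P1-ww714 replicate 3) to 193 held the log2 middle and 120 to 218 held the linear middle. The segment medians ran from 0.06 to 0.08 on the log2 scale and from -0.018 to -0.0025 on the linear scale. At an unadjusted p under 0.05 the counts ran from 189 to 510 on the log2 scale, from 168 to 597 on the linear scale and from 10 to 116 beyond both parents, the highest without P1-ww714/B73 replicate 2 or 3. The cause was not tested.

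The labels give no pairing by replicate number, and the data do not settle it: 4 of 9 same-numbered pairs correlated by over 0.1 and 5 of 9 libraries correlated best with their own number. With the replicate block 243 genes, against 175 without it, differed between the parents, 208 of them held the log2 middle and 241 the linear middle, with 0 genes off the middle. With 3 libraries per group, 68.5% of genes had intervals that excluded a 1.5-fold departure, and genes near 1 CPM rest on few counts.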
